A study of Mus musculus with 4 samples.

Results

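The gene starts described here are single promoters that carried a Runx2 peak at all 3 stages of osteoblast differentiation. Members were chosen by the peak calls themselves. Peaks from the day 0, day 9 and day 28 lists were joined into 1 region wherever they overlapped by 1 bp or more, regions with a peak in all 3 lists were kept when their centre lay within 1 kb of a protein-coding transcription start site (TSS), and regions that held TSSs on both strands were left out. This gave 7574 members, which were 11.2% of the 67703 merged regions and 40.8% of the 18584 regions bound at all 3 stages. Another 1002 regions met every condition but held TSSs on opposite strands, and are called divergent promoters. Presence in the lists, peak scores and closeness to a TSS are therefore properties of the selection, and are given as description only.

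The peaks came from ChIP-Seq of MC3T3-E1 subclone 4, a preosteoblast line from C57BL/6 mouse calvaria used at passages 28 to 31, with the Runx2 antibody M70. Cells were collected as proliferating preosteoblasts at day 0, as matrix-depositing osteoblasts at day 9 and as mineralizing osteoblasts at day 28 of culture, with ascorbic acid and beta-glycerophosphate added to induce osteogenic differentiation. The model is 1 subclone of a single line, and no cells with altered Runx2 are among the ChIP samples. Each time point had 1 list of peaks called on pooled libraries, holding 25457 peaks for day 0, 60596 for day 9 and 40330 for day 28, so differences between time points carry no replicate error and were not tested.

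Runx2 is the Runt-domain transcription factor that osteoblast formation requires. It binds DNA through a short core motif, TGTGGT, with its partner Cbfb, and recruits coactivators and corepressors to its sites. Promoters of widely expressed genes often lie in CpG islands, stretches rich in G, C and the dinucleotide CG, and usually lack a TATA box. Many genes of specialised cells have starts of low CpG content.

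Sites where the peak and the motif coincide are shown first. Those from Ost4 to Pgcp are the members with the highest scores that held the core motif within 50 bp of their centre. Capitals mark TGTGGT, and each run of 30 bases is written 5′ to 3′ on the strand that reads TGTGGT (mm9).
Ost4 (minus strand, chr5:31210582-31210611): ctttggtaggatTGTGGTttcagaaagact
B4galt1 (minus strand, chr4:40801024-40801053): ctcatccgcgctTGTGGTtcccgctgatct
Slc35a1 (minus strand, chr4:34634568-34634597): cctcctcgcgcgTGTGGTgcggcgggctct
Cenpw (minus strand, chr10:29920306-29920335): ggcgtgtcagtcTGTGGTgagcggccctga
Pgcp (plus strand, chr15:33013004-33013033): cccgaacgtgccTGTGGTctgcaggcctca
Runx2 (plus strand, chr17:44951903-44951932): tgacaaaaggctTGTGGTaaggccttcctg
Cdk6 (plus strand, chr5:3342911-3342940): cggacacgcggcTGTGGTggaacaaggtcc
Runx2 and Cdk6 ranked lower by score. They were added as the only members on the lists of osteoblast genes and of Runx2 partners that held the motif this close to the centre.

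A second set shows the 100 bp directly upstream of the TSS at chosen members on those lists and at 1 proteasome gene. It is given because the motifs it contains differ from gene to gene and are mostly not the Runx core. Each is written 5′ to 3′ on the strand of the gene (mm9), and capitals mark any of the short motifs whose shares are given later, on either strand.
Runx2, distal start (chr17:44951577-44951676, minus strand): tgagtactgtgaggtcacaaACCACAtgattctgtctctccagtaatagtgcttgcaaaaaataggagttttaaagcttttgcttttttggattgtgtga
Spp1 (chr5:104864037-104864136, plus strand): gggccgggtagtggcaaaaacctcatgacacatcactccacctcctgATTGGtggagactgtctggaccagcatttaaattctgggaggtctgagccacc
Cbfb (chr8:107694474-107694573, plus strand): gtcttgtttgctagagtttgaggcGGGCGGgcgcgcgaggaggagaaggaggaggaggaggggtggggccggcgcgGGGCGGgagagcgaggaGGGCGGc
Ctnnb1 (chr9:120842418-120842517, plus strand): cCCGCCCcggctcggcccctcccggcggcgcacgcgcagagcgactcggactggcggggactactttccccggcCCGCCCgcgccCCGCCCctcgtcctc
Cdk4 (chr10:126500490-126500589, plus strand): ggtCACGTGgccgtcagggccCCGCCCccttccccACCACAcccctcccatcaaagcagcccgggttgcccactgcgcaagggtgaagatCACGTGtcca
Psmb2 (chr4:126354774-126354873, plus strand): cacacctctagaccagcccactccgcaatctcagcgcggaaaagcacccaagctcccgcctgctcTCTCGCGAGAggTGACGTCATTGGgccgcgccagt
The distal Runx2 start and Cdk4 held the Runx core, read as ACCACA, while Cbfb and Ctnnb1 each held 3 GC boxes. Psmb2 held the palindrome TCTCGCGAG on both strands, the CRE element TGACGT on both strands and an inverted CCAAT box within a short stretch. Not every start held such a motif. The same stretch at the distal Runx3 start and at Rps12, not printed, held none of them, and that of another Runx3 start held only a CCAAT box.

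Each member was assigned to the gene with the nearest TSS in GENCODE version M1, whose gene models are on the same assembly as the peaks. The members lay at 7309 of 22359 coding genes (32.7%, 95% exact interval 32.1 to 33.3). Of these genes, 7060 had 1 member and 249 had 2 or more at alternative starts. Plec, which encodes the cytoskeletal linker plectin, had 5 members, and Lmna (lamin A/C) and Synpo (synaptopodin) had 4 each; these 3 genes were picked after their values were seen. Among the members, 56 held the TSSs of several genes on 1 strand, 194 held no TSS inside the region although their centre lay within 1 kb of one, and 36 had TSSs on opposite strands within 1 kb of the centre but not inside the region, so for these the gene assignment is less certain.

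Member regions were centred slightly downstream of the TSS. The median signed distance of the region centre was 57 bp, with quartiles of -39 and 189 bp. In all, 65.6% (64.5 to 66.7) of the centres lay downstream and 34.0% (32.9 to 35.1) upstream. At the edge of the selection, members at Ptgs1 and Lmna lay 1000 bp upstream of a TSS and scored 461, 2704 and 1587 and 101, 684 and 493 at days 0, 9 and 28. A region at Dlc1, 1001 bp away, was just outside it with scores of 1070, 3100 and 2142. The centre fell in a first exon at 3821 members (50.4%), in an intron at 1894 (25%), outside the coding transcripts of the gene at 1766 (23.3%) and in a later exon at 93 (1.23%).

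The position of the highest-scoring peak differed a little between the lists. Its centre had a median distance of 23 bp from the TSS at day 0, with quartiles of -106 and 165 bp. At day 9 the median was 69 bp (-37 and 182), and at day 28 it was 56 bp (-45 and 174). The day 0 peaks thus reached further upstream, while the downstream quartile was close to that of the later lists. The order of these medians was not tested, since each list is a single pooled call.

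**Figure D1:**
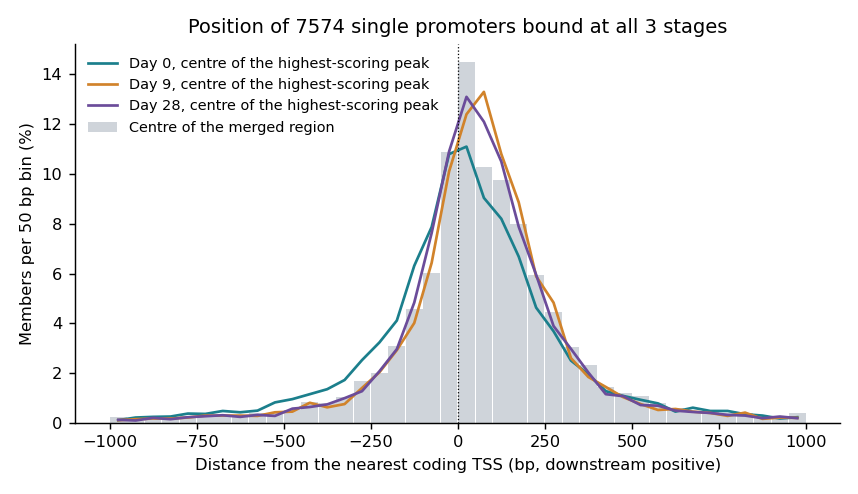
Position of the members relative to the nearest coding TSS, in bins of 50 bp (x axis, bp; y axis, percent of the members). Grey bars stand for the centre of the merged region and lines for the centre of the highest-scoring peak in each list. The bars are highest just downstream of the TSS, where 14.5% of the centres lay in the first 50 bp, and the day 0 line is broader on the upstream side.

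Members were wider than single promoters bound in fewer lists. Their median width was 1293 bp (quartiles 1015 and 1672), against 850 bp (667 and 1092) for the 1818 single promoters bound at days 9 and 28 only and 488 bp (391 and 628) for the 1204 bound at day 9 only. Divergent promoters bound at all 3 stages were wider still, with a median of 1400 bp (1124 and 1770). A region merged from 3 lists spans all of its peaks, so width follows in part from the selection. The longest members were at Plec (6460 bp), Midn (6383 bp) and Irf2bp2 (6365 bp). Of the members, 6513 consisted of exactly 1 peak in each list.

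Score ranked the members differently in the 3 lists. The score of a peak is 10 times the negative log10 of its MACS p-value, and members were ranked within a list by their percentile, the percentage of the peaks in that list with a lower score, where tied peaks take their middle rank. The median score of the members was 345 in the day 0 list, 1312 in the day 9 list and 1178 in the day 28 list. The median percentile was 59.6 (quartiles 37.9 and 78.1) at day 0, 85.0 (74.1 and 92.7) at day 9 and 81.6 (67.8 and 91.3) at day 28. Scores under 200 were found for 1747 members (23.1%) in the day 0 list, 197 in the day 9 list and 208 in the day 28 list. Raw scores also depend on how deeply each time point was sequenced, and day 0 was sequenced most deeply, so they are given side by side and not compared between lists. These promoters were thus in the middle of the day 0 list and in the upper part of both later lists. Median percentiles at days 0, 9 and 28 were 65.8, 86.5 and 83.3 for divergent promoters bound at all 3 stages. They were 59.0, 71.5 and 62.7 for distal regions bound at all 3 stages, so the lower place at day 0 was not particular to single promoters.

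The lists differ in length, and this moved the percentiles. The percentile was higher at day 9 than at day 0 for 6902 members (91.1%), and lower at day 28 than at day 9 for 4923. With each list limited to its 25457 best peaks, the medians for days 0, 9 and 28 became 62.9, 68.0 and 74.2. The percentile was then higher at day 9 than at day 0 for 4001 of 6851 members (58.4%) and higher at day 28 than at day 9 for 4938 (72.1%), so the order of days 9 and 28 turned. Across the members, scores of days 9 and 28 had a Spearman correlation of 0.90, against 0.67 for days 0 and 9 and 0.69 for days 0 and 28 (n = 7574 regions). This is a description over regions of the same genome, some of them neighbours, and not a test.

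Many of the highest scores were tied. A score of 3100 or more was reached by 30 members in the day 0 list, by 1189 and 886 members in the later lists, and by 29 members in all 3. The 10 members with the highest lowest percentile over the lists included those at Nfkb2, Zfp91, Dnajc10, Lnpep, Csnk1g2, Urgcp, Ccdc88a, Zfp672 and Plec. Nfkb2, which encodes the p100 precursor of an NF-kappaB subunit, scored 2560, 3207 and 3100 in the lists of days 0, 9 and 28. Dnajc10, a co-chaperone of the endoplasmic reticulum, scored 3202, 3100 and 3100. Both had a percentile of 97.4 or more in every list. The last 6 of the 10 scored 3100 in each list and were ordered by position alone, so they do not rank above the other members with that score.

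At the other end, Usp39, which encodes a splicing protein related to deubiquitinases, scored 100.3, 341 and 349, and 2010002N04Rik scored 100.2, 286 and 307. Both were members by a day 0 score just above the lowest score of 100.0 in the lists. The largest gains in percentile from day 0 to day 9 were at Ly9, a receptor of lymphocytes, with scores of 104, 2198 and 828, at Nod2, an intracellular sensor of bacterial peptides, with 101, 1889 and 1314, and at Rgnef, a guanine nucleotide exchange factor, with 104, 2151 and 1754. The largest losses over the same interval were at Pttg1ip (379, 103 and 115), L1cam (734, 146 and 432) and Nppb (398, 110.1 and 221). From day 9 to day 28 the largest gains included Cd14 and Tmem29, which scored 427 and 515 at day 28 after 109 and 121 at day 9. The largest losses there were at Unc5c, Cdhr1 and Mrpl38, which scored 108, 129 and 101 at day 28 after 665, 746 and 409. Single members thus moved far within the lists in either direction, some of them with a score close to the lowest in 1 list.

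Osteoblast genes were then examined by role. Of 67 genes on the osteoblast list, 37 had a member at their start (55.2%, interval 42.6 to 67.4), 2 had a divergent promoter bound at all 3 stages, 14 had a start bound at days 9 and 28 only, and 12 had no region within 1 kb of a start. Over all coding genes these classes held 32.7%, 8.71%, 7.04% and 46.2%. The list was put together with earlier results of these data known, so its share is a count and not independent evidence. Over its 39 member regions the median percentiles of days 0, 9 and 28 were 62.4, 90.4 and 89.5, beside 59.6, 85.0 and 81.6 over all members.

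Among the transcription factors, the Runx2 gene itself had members at both of its known starts. Its distal start scored 738, 1926 and 1720 in the lists of days 0, 9 and 28. The proximal one scored 355, 3059 and 2282. The distal region held 6 copies of TGTGGT and the proximal one 1. Twist1, an early inhibitor of Runx2, scored 244, 3100 and 2162. Dlx5, a homeobox activator of osteoblast genes, scored 412, 2297 and 1622, and Msx1, another homeobox factor, scored 133, 659 and 609. Atf4, which drives amino acid supply and late osteoblast genes, was high throughout with 1520, 3100 and 3100. Vdr, the vitamin D receptor, went the other way in rank, from the 90.6 percentile at day 0 to 69.0 at day 9 and 79.3 at day 28 (scores 994, 544 and 1050). Sp7, the factor known as osterix that acts after Runx2, was not a member, since its start was bound at days 9 and 28 only.

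Matrix and mineral genes were split between classes. Col1a1 and Col1a2, the chains of type I collagen, scored 496, 1616 and 1693 and 507, 1574 and 1727 at days 0, 9 and 28. The Col1a1 region was centred 951 bp downstream of the TSS in an intron, and the Col1a2 region 44 bp upstream. Sparc (osteonectin) scored 146, 1097 and 647, and Phospho1, a phosphatase of matrix vesicles, scored 564, 3100 and 3100. Spp1 (osteopontin) scored 157, 200.1 and 190.3 and had a region of 546 bp, and in the later lists it was the lowest of these genes. Starts of Alpl, Bglap, Bglap2, Ibsp and Postn, all genes of the mineralizing matrix or of its surface, were bound at days 9 and 28 only. Mepe, Phex, Enpp1 and Mmp13 had no region within 1 kb of a start.

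Signalling genes supplied many of the other osteoblast members. In the TGF-beta and BMP pathways, the receptor gene Tgfbr1 scored 793, 3100 and 3100, while Tgfbr2 scored 219, 860.4 and 576 and Bmpr1a scored 305, 856 and 1450. The BMP-activated Smad1 and Smad5, the shared Smad4 and the inhibitory Smad6 and Smad7 were all members, but the ligand genes Bmp2 and Bmp4 had no region at a start and Tgfb1 was bound at days 9 and 28 only. In the Wnt pathway, Ctnnb1 (beta-catenin) scored 582, 2117 and 2967, and the coreceptors Lrp5 and Lrp6 scored 113, 905 and 1163 and 309.9, 2688 and 3057. Wnt10b, an osteogenic ligand, had a region centred 976 bp upstream that scored 2773, 3100 and 3100 and a second one with 819, 3100 and 1340. Of the secreted Wnt antagonists, Dkk1, Sfrp1 and Sost had no region within 1 kb of a start.

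Receptors for hormones and growth factors differed most in their day 0 scores. Pth1r, the parathyroid hormone receptor, scored 121, 2454 and 1822, and Fgfr2 scored 149, 2732 and 1933, whereas Fgfr1 scored 418, 2680 and 1908. Adamts4, a protease that cleaves aggrecan, scored 173 at day 0 and 3100 in both later lists. Tnfrsf11b, the osteoprotegerin gene, scored 583, 3100 and 2308, while the gene of its ligand, Tnfsf11, had no region at its start. For these receptor genes the day 0 percentile was 10.6 (Pth1r), 21.6 (Fgfr2) and 66.8 (Fgfr1), against 89.5 or more in either later list.

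Genes of Runx2 partners and regulators had members more often than coding genes in general. Of 50 genes on this list, 40 had a member (80%, 66.3 to 90) beside 32.7% of all coding genes, and 2 more had divergent promoters. Lists of general genes had similar shares, such as cyclin-dependent kinases (83.3%) and cytosolic ribosomal proteins (75.3%), so a high share was not particular to Runx2 partners. This list too was chosen with earlier results of these data known, and its share is a count only. Cbfb, the partner that stabilises Runx proteins on DNA, scored 313, 3172 and 3178. The paralog Runx3 scored 3100 in each list at its distal start and 211, 3100 and 1736 at a second start, and Runx1 had 3 members. The strongest of them scored 2257, 3100 and 3210. All 3 Runx genes therefore carried peaks at several of their own starts at every stage.

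Corepressors and histone-modifying partners formed a second group. Tle1, a Groucho corepressor, scored 1738, 3100 and 3100 and Tle2 scored 188, 2793 and 1237, while Tle3 had a divergent promoter. Ncor1, a corepressor of nuclear receptors, scored 774, 2305 and 2791. Among the deacetylases Hdac5 and Hdac7 were members, Hdac3 had a divergent promoter, Hdac1 and Hdac6 were bound at days 9 and 28 only, and Hdac4 had no region at a start. Of the acetyltransferases, Ep300 scored 366, 2438 and 2652, and Crebbp scored lower with 135, 355 and 547. The SWI/SNF genes Smarca2, Smarca4 and Smarcb1 were all members.

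AP-1 and ubiquitin genes completed the partners. Fosl2 scored 2057, 3100 and 3100, Fos scored 552, 1984 and 1452, Jun scored 401, 3092 and 1694, and Fosl1 scored 785, 644 and 498. Fosl1 was the one AP-1 gene of these whose percentile was highest at day 0 (86.1, against 72.6 and 61.4 later). The ubiquitin ligase genes Stub1, Smurf1, Smurf2 and Wwp1, whose products bind Runx2 or Smads, were members, and Stub1 was near the top of each list with 2661, 3100 and 3100. Hes1, a Notch target, had the lowest percentile of these partners at day 0 (0.986), with scores of 102, 145 and 288.

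**Figure D2:**
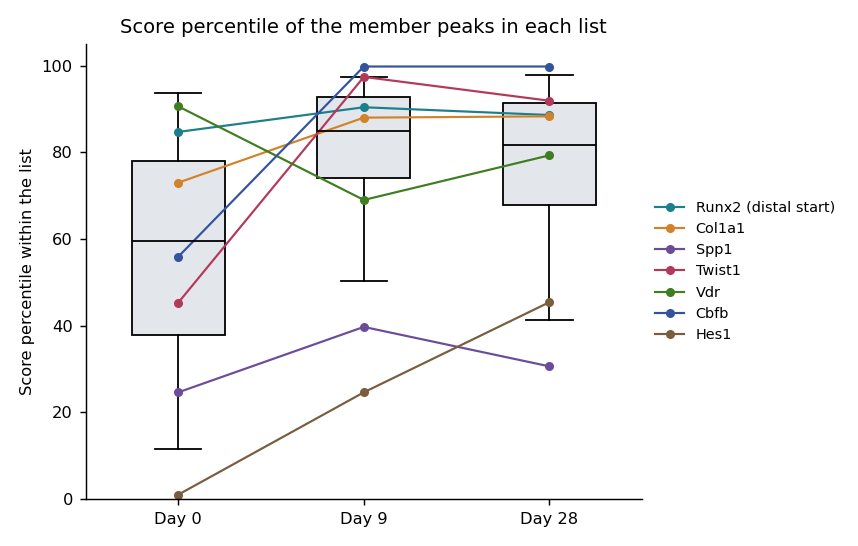
Score percentile within each list (y axis) for the members at days 0, 9 and 28 (x axis). Boxes give quartiles and medians of the 7574 members and whiskers run from 5% to 95% of the members, and lines join 7 osteoblast or partner genes. Vdr is highest at day 0, Cbfb and Twist1 are higher in both later lists, and Spp1 and Hes1 lie below the median of the members in every list. The lists differ in length, so a percentile is a place within 1 list only.

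Most of the fixed gene lists held genes of general cell functions, so their number among the lists with a high share follows from that choice. The gene lists were counted by symbol, and 22 of the 25 lists had a share above the 32.7% of all coding genes. Besides the Runx2 partners, the highest were the cyclin-dependent kinases (15 of 18, 83.3%), the cytosolic ribosomal proteins (61 of 81, 75.3%), the cyclins (18 of 24, 75%) and the E2 ubiquitin-conjugating enzymes (24 of 32, 75%). Genes of translation were close behind, with 41 of 58 initiation factors and 24 of 35 aminoacyl-tRNA synthetases. Of the 22 lists, the chaperonin CCT was barely above 32.7% (3 of 9, 33.3%, 7.49 to 70.1). The interval also included 32.7% for the Hsp60, Hsp70 and Hsp90 chaperones (11 of 20, 31.5 to 76.9) and for the V-ATPase genes described below. No member was found at 1113 olfactory receptor genes (interval up to 0.331%) or at 321 vomeronasal receptor genes (up to 1.14%). Keratins had 2 members among 51 genes, Krt80 and Krt86. Families of widely used genes and families of sensory receptors thus stood at opposite ends of these lists. The receptor and keratin lists had been included as silent families, so this contrast is a description of chosen lists.

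In the cell cycle group, Cdk4, the partner kinase of the D cyclins, scored 1578, 3100 and 3100 and Cdk6 scored 779.8, 1425 and 1382. Cdk9, which releases paused RNA polymerase II, scored 934, 3100 and 3100, and Cdk17 scored 1056, 3100 and 3100. Ccnd1 scored 287, 1115 and 728, and Ccne2, which acts at entry into S phase, scored 992, 3188 and 3100. Ccnb1 and Ccnb2, the mitotic cyclins, were bound at days 9 and 28 only. Among replication genes, Pcna, the sliding clamp of DNA polymerase, scored 1886, 3100 and 3122 and Orc5, a subunit of the origin recognition complex, 1737, 3100 and 3100.

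For protein synthesis and turnover, the members named were those ranked highest by their lowest percentile in each list. Their high scores follow from that choice and do not describe the typical member of these lists. Rps12 scored 1851, 2929 and 2866, and Rpl10a scored 1122, 3100 and 3100. Among the tRNA synthetases, Gars scored 1535, 3100 and 3100, and the initiation factor subunit gene Eif3g scored 1484, 3100 and 3100. For turnover, Psmd7, a lid subunit of the proteasome, scored 1359, 3100 and 3100, and Psmb2 scored 733, 1613 and 1439. The chaperone genes Hspa9, Trap1 and Hsp90ab1 scored 1455, 1498 and 1009 at day 0. Of the 39 proteasome genes 23 were members, and 7 more had divergent promoters.

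Genes of RNA synthesis, energy supply and transport were described in the same way. Of 47 spliceosome and SR protein genes 32 were members (68.1%, 52.9 to 80.9), and Sf3b2, a subunit of the SF3b complex that recognises the branch site, scored 1654, 2795 and 3100. Of 30 Mediator genes 20 were members (66.7%), with Med21 highest by its lowest percentile at 715, 1467 and 1719. Among 26 RNA polymerase genes 15 were members, led by Polr2j, a subunit of RNA polymerase II, with 1571, 3100 and 2433. For respiratory complex I the count was 21 of 37, and Ndufs7, a subunit that carries an iron-sulfur cluster, scored 1959, 3100 and 3100. The V-ATPase, the proton pump of lysosomes, had 12 members among 22 genes, and its leading gene Atp6v1f scored 803, 1536 and 1347. These lists all lay above the 32.7% of coding genes, but the interval of the V-ATPase genes (32.2 to 75.6) included it.

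Rab, zinc finger and histone genes are given next. Of 56 Rab genes, which encode small GTPases of vesicle traffic, 35 were members (62.5%, 48.5 to 75.1), 4 were bound at days 9 and 28 only and 11 had no region. Rab14 scored 1048, 3193 and 3100 and Rab6 scored 1017, 3100 and 3100. Of 367 Zfp zinc finger genes, 190 were members (51.8%, 46.5 to 57.0) and 92 had no region. Their leading members, Zfp91 and Zfp672, were among the 10 named above, and Zfp746 scored 2352, 3100 and 3100. Among the replication-dependent histones, Hist2h2aa2 scored 2048, 3100 and 3100 and Hist2h3c1 scored 1345, 3100 and 3100. Histone genes are short and near-identical copies lie side by side, so reads and starts of neighbours may not be separable there.

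Some families were split between single and divergent promoters. All 9 genes of the chaperonin CCT, which folds actin and tubulin, had a promoter bound at all 3 stages, but only Cct2, Cct4 and Cct8 were single. With divergent promoters counted, the share was 97.1% for aminoacyl-tRNA synthetases, 96.2% for RNA polymerase subunits and 90.8% for mitochondrial ribosomal proteins. For single promoters alone these shares were 68.6%, 57.7% and 56.6%. Over all coding genes, 32.7% had a single promoter and a further 8.71% a divergent promoter bound at all 3 stages. Replication-dependent histones, which lie in clusters of genes on both strands, had 31 single and 19 divergent promoters among 67. The separation by strand therefore removes a different part of each family.

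**Figure D3:**
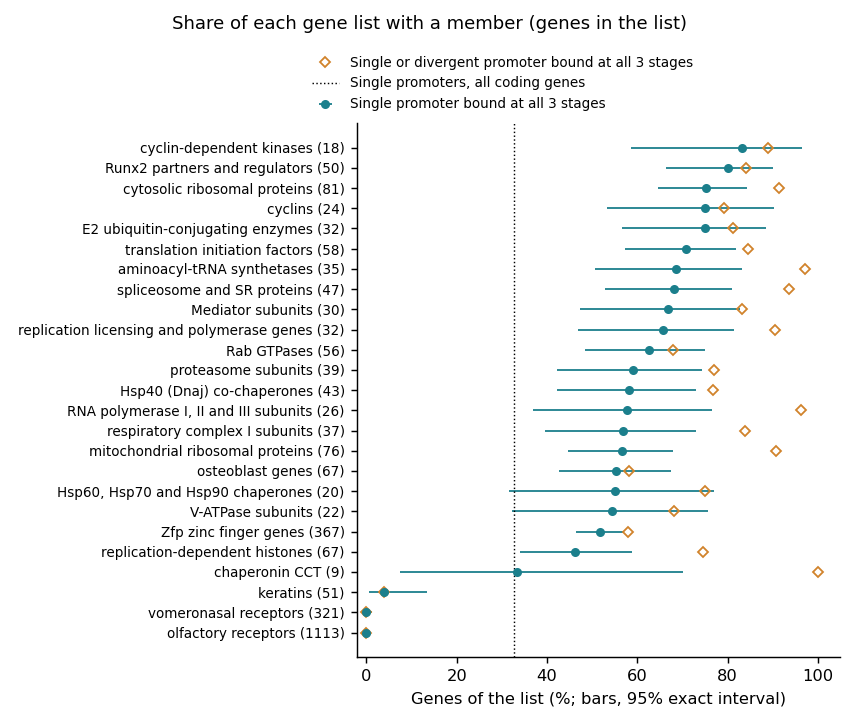
Share of each gene list with a member at a start (x axis, percent; filled points with 95% exact intervals), with the number of genes in parentheses. Open diamonds add divergent promoters bound at all 3 stages. The dotted line marks the 32.7% of all coding genes with a single promoter, so it is a reference for the filled points and not for the diamonds. Cyclin-dependent kinases stand at 83.3% and both receptor families at 0.

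The Runx core was less frequent at the centre of the members than beside it. TGTGGT, read on either strand, lay within 50 bp of the centre at 314 of 7574 members (4.15%, 3.71 to 4.62), and in 5.20% (4.85 to 5.57) of windows of the same length from 450 to 550 bp on both sides. The centre thus held it 0.797 times as often as the flanks. Over all merged regions the share at the centre was 24.2%. At distal regions bound at all 3 stages, whose centre lay over 1 kb from any coding TSS, it was 21.8% (21.0 to 22.6), or 2.72 times their flanks, and the members differed by -17.7 percentage points (95% Newcombe interval -18.6 to -16.7). Anywhere in the region, 3624 members (47.8%) held the motif at least once, with 0.535 copies per kb of member sequence. Longer regions have more room for the motif, and no such share is given for other regions, so this one has no comparison.

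Single promoters bound in fewer lists held the core more often. Those bound at days 9 and 28 only had it at 8.47% of centres (7.23 to 9.85), which was 1.74 times their flanks, and those bound at day 9 only at 19.7% (17.5 to 22.0), which was 3.18 times their flanks. The members differed from the first by -4.33 points (-5.76 to -3.04) and from the second by -15.5 points (-17.9 to -13.3). Divergent promoters bound at all 3 stages had 3.29% (2.28 to 4.59), and the difference of 0.852 points from the members had an interval of -0.512 to 1.90. When only regions centred within 200 bp of the TSS were counted, a choice made after seeing the data, the shares were 3.97% of the members, 6.32% of promoters bound at days 9 and 28 only and 15.5% of those bound at day 9 only. The order of the groups was thus the same next to the TSS. Centres are midpoints of merged regions and not peak summits. The groups also differed in median width (1293, 850 and 488 bp), and the part of width in the shares was not tested.

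**Figure D4:**
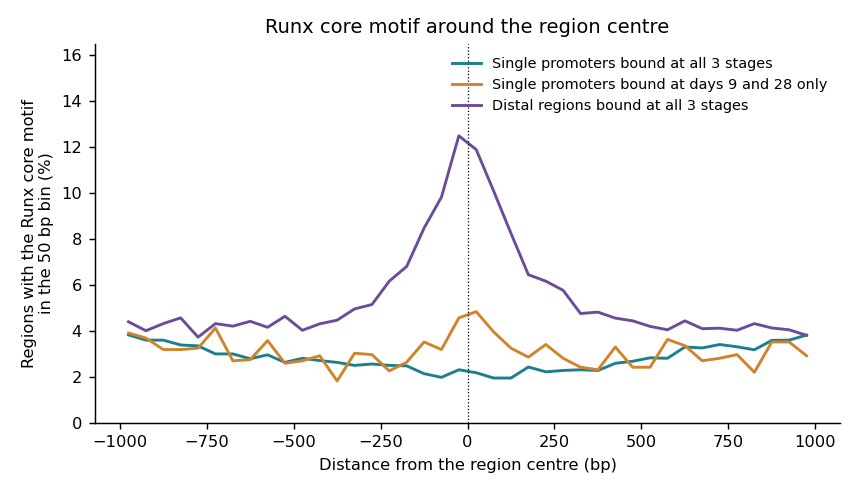
Percentage of regions with the Runx core in each 50 bp bin (y axis) by distance from the region centre (x axis, bp). Distal regions bound at all 3 stages reach 12.5% beside the centre and promoters bound at days 9 and 28 only reach 4.84%. The members stay near 2% around the centre (2.31% and 2.18% in the 2 central bins) and are higher toward either end.

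Base composition accompanied this difference. In a window of 150 bp on either side of the centre, the members had a median GC content of 67.1% and a median CpG content of 0.848, expressed as observed CG dinucleotides over the number expected from the C and G content. Distal regions had 51.5% and 0.239, and promoters bound at day 9 only had 58.8% and 0.361. Of the members, 83.9% had a CpG content of 0.6 or more and 7.14% had one under 0.4. Among the 541 members under 0.4, 73 held the core (13.5%, 10.7 to 16.7) against 8.50% of their flanks, whereas among the 6358 at 0.6 or more 199 did (3.13%, 2.72 to 3.59) against 4.80% of the flanks. So only members of low CpG content had the motif more often at the centre than beside it.

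The CpG classes also differed in position and rank. Members under 0.4 had a median distance of -4 bp from the TSS with quartiles of -304 and 335 bp, against 60 bp with quartiles of -25 and 177 bp at 0.6 or more. Their median percentiles at days 0, 9 and 28 were 57.6, 74.0 and 67.4, against 51.3, 77.0 and 71.2 from 0.4 to 0.6 and 60.6, 86.0 and 83.3 at 0.6 or more. The class of highest CpG content thus had the highest median in each list, and its centres lay more tightly around the start.

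Within classes of CpG content the difference from other regions varied. At 0.6 or more, promoters bound at days 9 and 28 only held the core at 3.97% (2.92 to 5.26), a difference of -0.839 points with an interval from -2.18 to 0.243. In the same class the members differed by -5.01 points (-8.41 to -2.52) from promoters bound at day 9 only, at 8.14%, and by -2.41 points (-4.11 to -1.04) from distal regions, at 5.54%. Under 0.4, promoters bound at days 9 and 28 only had 20.6%, and the members differed by -7.08 points (-12 to -2.31). Compared with distal regions under 0.4, at 24.6%, the members differed by -11.1 points (-13.9 to -7.81). The part of composition in the overall difference was not tested.

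The share with the core did not follow one order across the score groups. Split by quartiles of the day 9 percentile, the share with the core was 4.91% (3.98 to 5.98), 3.85% (3.03 to 4.82), 2.91% (2.20 to 3.77) and 4.91% (3.98 to 5.99) from the lowest to the highest group. By day 28 percentile the shares were 5.39%, 3.91%, 3.01% and 4.28%. By day 0 percentile they were 3.43%, 4.65%, 3.38% and 5.12% (4.17 to 6.22), so there the highest group had the highest share. Members with the core had a median day 9 percentile of 83.9 and those without it 85.0. Their centres were also similarly placed, 36 and 58 bp from the TSS, but the CpG content was 0.712 with the core and 0.854 without it.

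The gene starts themselves were compared with those of other genes, from 250 bp upstream to 50 bp downstream of the TSS used by most coding transcripts. Member genes had a median GC content of 61.0% (quartiles 55.0 and 67.7) and a median CpG content of 0.784 (0.611 and 0.917). The 10020 genes with no peak within 1 kb of any coding TSS had 48.3% and 0.235, and all coding genes had 55.3% and 0.538. A GC content of at least 50% together with a CpG content of at least 0.6 was found at 72.2% of member starts and 12.8% of starts without a peak. Genes without a region at a start include 1093 olfactory and 318 vomeronasal receptor genes.

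Motifs of general promoter factors were frequent at member starts. The GC box GGGCGG, bound by the Sp1 family, was present at 66.7% (65.6 to 67.7) of member starts, 43.9% of all coding gene starts and 20.9% of starts without a peak. For the ETS core CCGGAAG the shares were 18.3%, 10.8% and 2.82%. The NRF1 element GCGCATGC, found in promoters of many respiratory genes, had 5.91%, 3.31% and 1.03%. The palindrome TCTCGCGAG had 1.5%, 0.836% and 0.22%. In each case the interval of the member genes lay above the share over all starts, of which they are part.

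Other CG-containing or general motifs showed the same order, except CCAAT. The E-box CACGTG was at 10.6% of member starts, 7.70% of all starts and 4.98% of starts without a peak, and the CRE element TGACGT at 12.6%, 8.56% and 4.32%. AAGATGGC, the YY1 element, had 4.57%, 3.34% and 1.75%. CCAAT, the NF-Y box, had 37.8% in each group of starts. All were counted on both strands, and a match is a string of letters and not a bound site.

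The reverse order held for 3 motifs. The Runx core was present at 12.4% (11.7 to 13.2) of member starts, 15.2% of all starts and 18.2% (17.5 to 19) of starts without a peak. TGANTCA, the AP-1 site, had 4.26%, 6.79% and 9.44%. TATAAA on the coding strand, with its first base 40 to 20 bp before the TSS, had 0.903% (66 genes), 2.35% and 3.71%. Genes with a single promoter bound at days 9 and 28 only lay between the member genes and all genes for the Runx core (12.7%, 11.0 to 14.5), the GC box (62.2%, 59.6 to 64.6) and AP-1 (5.27%, 4.19 to 6.53), and had the ETS core at 9.73% (8.27 to 11.4). With C or T allowed at the third base, the shares of members, all genes and starts without a peak were close, at 21.4%, 21.6% and 21.9%. This wider motif also counts the string TGCGGT. The lower share at member starts therefore held for TGTGGT only and not for the wider motif.

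**Figure D5:**
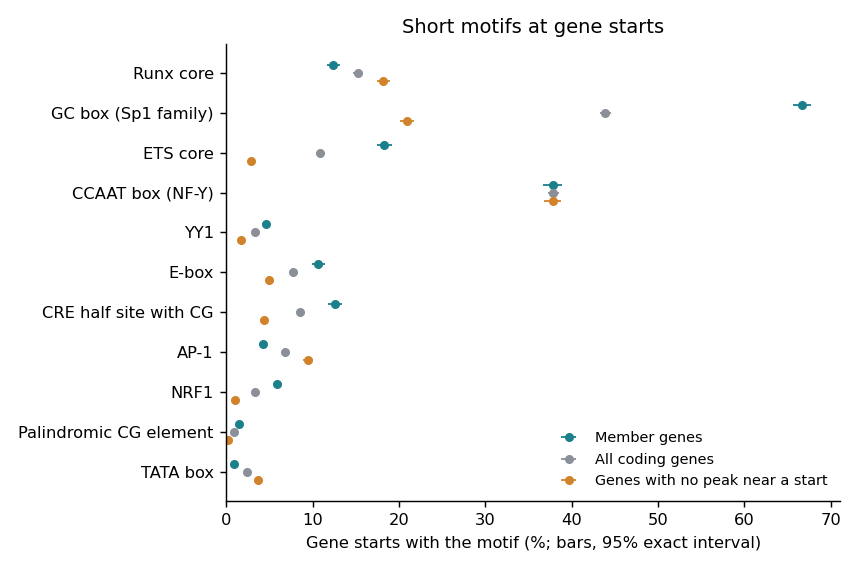
Percentage of gene starts that hold each motif (x axis; points, with 95% exact intervals) for 7309 member genes, all 22359 coding genes and 10020 genes with no peak near a start. Member genes lie highest for the GC box (66.7%) and the ETS core (18.3%) and lowest for the Runx core, AP-1 and the TATA box.

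Member genes usually had more Runx2 regions than the one at their start. A further region, centred over 1 kb from every TSS of the gene but in its body or within 10 kb of it, was found for 5896 of 7309 member genes (80.7%, 79.7 to 81.6) and for 62.7% of all coding genes. Member genes were longer, with a median of 25309 bp against 15121 bp, and the part of length in this difference was not tested. Genes with a single promoter bound at days 9 and 28 only had a further region at 82.2% (80.2 to 84.1). By stage, 49.6% of member genes had a further region bound at all 3 stages and 53.6% had one bound at day 9 only, beside 33.0% and 40.7% of all genes. Thus a constant promoter and regions found at 1 stage commonly lay at the same gene. Among member genes Fgfr2 had the highest count, 182, over an annotated length of 3009069 bp, which is the extent of its transcripts in this annotation. Any region in that span counts toward Fgfr2, also one at another gene, so this count does not describe dense binding at Fgfr2. Sorcs2 had 54 over 380960 bp and Sh3pxd2a had 45 over 204238 bp.

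Members were unevenly spread over chromosomes. On chromosomes 1 to 19, 7196 of 21410 coding genes (33.6%, 33.0 to 34.2) had a member. On chromosome X, 113 of 932 did (12.1%, 10.1 to 14.4), and no gene of chromosome Y did. Chromosome 14 was the lowest of the autosomes at 18.8% (16.4 to 21.4) and chromosome 19 the highest at 41.3% (37.7 to 45.0). Without olfactory and vomeronasal receptor genes the shares were 36.0% for the autosomes, 12.2% for X and 19.6% for chromosome 14, so both low values remained.

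Finally, members were counted among the genes listed by the study as responsive to a short hairpin RNA against Runx2 in cells differentiated for 9 days. A member was at the start of 14 of 42 matched genes with lower expression (33.3%, 19.6 to 49.5) and of 17 of 108 with higher expression (15.7%, 9.45 to 24.0), beside 32.7% of all coding genes. Among the former were Id2, Id3, Asns and Insig1, and among the latter Stat2, H2-K1 and Gbp3, which were named after the counts were seen. Id3, an inhibitor of helix-loop-helix factors, scored 640.1, 773 and 688, and Stat2, a mediator of interferon signals, scored 209.9, 1366 and 979. Starts bound at days 9 and 28 only accounted for 13 of the 42 genes with lower expression and 7 of the 108 with higher expression, where 7.04% of all coding genes are in this class. Because the list was selected on expression, only counts are given.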

How the data were processed

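The authors mapped single-end reads to mm9 with Bowtie (0.12.8), combined replicate libraries, ran MACS (1.4.1) with input DNA of day 9 cells as control, kept peaks with a p-value of 1e-10 or lower and deposited 1 list per time point; tool versions follow the submitters' processing notes. The score the authors deposited is the p-value from MACS as −10 × log10. The lists hold no read counts. The study's supplement lists more reads for day 0 than for day 9 or 28, and the part of depth in the scores was not tested; signal tracks and input libraries were not analysed here.

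Peaks sharing at least 1 bp were merged, and TSSs were taken from 51710 coding transcripts of GENCODE version M1 on NCBIM37 (mm9), leaving out the mitochondrial genome. Motifs were searched in the NCBIM37 sequence. Shares carry exact (Clopper-Pearson) 95% intervals and differences of shares Newcombe intervals, which cover counting error only. No test was made between time points. Gene lists were counted by symbol, 134 of which have several gene models. Names of knockdown-responsive genes came from a list in the study's supplement and served for counts only.

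Members and lists were chosen with earlier results of these data known. Named genes were the 10 highest by lowest percentile and all members on the osteoblast and partner lists. From each other list up to 3 were taken, those highest by lowest percentile. The largest shifts and the members at the edges of the selection were added, and others are marked. Values of some genes that the rule names are not reported here. Alternatives covered the score, overlap, list length, TSS set, distance and windows. Scripts ran under Python 3.11.15 with pysam 0.24.0, SciPy 1.17.1, NumPy 2.4.6 and Matplotlib 3.10.9, and the procedures were tested on simulated data.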

Additional observations from a re-analysis of the deposited data

How the results depend on the processing

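The number of members stayed within 1.5 times of 7574 regions under 13 of 14 alternatives, from 5390 to 8089, and was 2357 (2338 genes) with a score of at least 500 in every list. At that score the share with TGTGGT was 4.75%, the median width 1543 bp, and the median percentiles 43.9, 82.2 and 82.3 at days 0, 9 and 28. With lists of equal length these percentiles were 62.9, 68.0 and 74.2. The median distance was 90 bp with CCDS transcripts and 110 bp with 1 TSS per gene. The share with TGTGGT was 7.83% within 100 bp, 18.7% within 250 bp, 8.86% with C or T at the third base and 4.66% around the day 0 peak. No flank share is given for the wider motif, so its place at the centre has no comparison. Median GC and CpG contents were 66.5% and 0.862 within 100 bp of the TSS, and 63.3% and 0.819 at the TSS nearest the centre. Further regions were found for 52.8% of member genes in the gene body alone (all genes, 37.3%), 97.3% within 50 kb (82.8%) and 52.1% at a score of at least 500 (36.3%). The cause of these moves was not tested beyond what each setting changes by construction. Of the other alternatives, none moved the number of lists with a share above that of all genes outside 20 to 22. Leaving out transcripts with an incomplete start, chosen after seeing the data, gave 7543 members. No paired analysis was possible because each time point has 1 pooled list.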
